A study of Rattus norvegicus with 12 samples.

Results

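Bile acid synthesis and transport was read in the rat liver through 10 genes, taken by name from the 32883 genes of the expression tables: the classical pathway enzymes Cyp7a1 and Cyp8b1, the alternative pathway enzymes Cyp27a1 and Cyp7b1, the conjugating enzymes Slc27a5 and Baat, the transporters Slc10a1 and Abcb11, and the regulators Nr1h4 and Nr0b2. The rule that names them uses no measured value. All 12 samples came from livers of healthy male rats, with no treatment or engineered allele in their labels. Total liver homogenates (TLHs) of 2 Dark Agouti (DA) and 2 Lewis (LEW) rats were dissociated in 2 collagenase steps for single-cell RNA-seq. Livers of 2 DA and 2 LEW rats gave snRNA-seq libraries, and 1 DA and 1 LEW liver gave a cell suspension enriched for immune cells. For this enrichment the paper describes spinning out parenchymal cells, extra washing and red cell removal. Sections of 2 Wistar livers were read on Visium slides. Ages were given as 8 to 10 weeks in the design text, but names attached to the TLH data gave 10 weeks for DA and 13 weeks for LEW, those of the immune-enriched libraries gave 9 weeks, those of the nuclei gave no age, and the study's methods state yet another range, with the strains matched on age. Strain and age cannot be told apart in the TLH comparison as far as those names go. The nuclei names hold animal numbers that the TLH names also hold, and whether age differed between the strains there was not tested. The TLH, immune-enriched and nuclei names carry the word SHAM, which the labels do not explain.

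Hepatocytes make bile acids from cholesterol. CYP7A1 opens the classical pathway by hydroxylating cholesterol at carbon 7, and CYP8B1 adds the hydroxyl group that commits the product to cholic acid, whereas CYP27A1 opens the alternative pathway at the side chain and CYP7B1 hydroxylates the resulting oxysterols. SLC27A5 couples bile acids to coenzyme A and BAAT transfers them to taurine or glycine. Conjugated bile acids return from the portal blood through SLC10A1 (NTCP) and leave across the canalicular membrane through ABCB11 (BSEP). The bile acid receptor FXR (Nr1h4) induces the repressor SHP (Nr0b2), which lowers transcription of Cyp7a1 and Cyp8b1. Blood crosses the liver lobule from the portal tract to the central vein, and many hepatocyte functions differ along that path.

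RefSeq promoters of 6 members were found (build GRCr8, from 250 bases before the transcription start to 50 after it), and 4 are shown here. Baat is shown because it differed between the strains, Slc27a5 and Cyp27a1 because they differed along the lobule, and Cyp8b1 as the classical pathway member found. Capitals mark matches of either strand to the searched letters CAAAGTCCA (HNF4A) or CAAGGTC (the NR5A2 core). The HNF4A match of Baat (chr5:68656088-68656387, minus strand) starts at -90, and 0.391% of 33469 rat promoters of this length hold these letters. CAAGGTC was in 4.201% of promoters and in 2 of the 6 members, at -89 in Cyp8b1 (chr8:130457543-130457842, minus strand) and, on the opposite strand, at -235 in Cyp27a1 (chr9:83713282-83713581, plus strand). Slc27a5 (chr1:82699286-82699585, minus strand) held no match to the searched letters. The letters CTTTGAT (TCF) were in 0 of the 6 promoters, against 3.633% of all, and TATAAA was in that of Nr0b2 at -29, against 14.222% of all. None of these motifs overlaps another in the windows shown.
Baat: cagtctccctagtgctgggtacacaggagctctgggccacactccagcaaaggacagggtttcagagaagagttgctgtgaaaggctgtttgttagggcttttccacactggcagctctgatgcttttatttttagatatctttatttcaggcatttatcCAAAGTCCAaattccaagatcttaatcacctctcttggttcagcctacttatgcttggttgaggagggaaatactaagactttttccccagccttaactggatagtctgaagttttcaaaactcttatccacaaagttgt
Cyp8b1: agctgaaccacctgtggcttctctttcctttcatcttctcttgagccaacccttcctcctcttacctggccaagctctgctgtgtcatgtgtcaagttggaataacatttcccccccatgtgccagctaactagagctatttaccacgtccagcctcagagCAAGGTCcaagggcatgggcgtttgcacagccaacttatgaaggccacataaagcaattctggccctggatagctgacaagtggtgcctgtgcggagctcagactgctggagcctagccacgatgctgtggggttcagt
Cyp27a1: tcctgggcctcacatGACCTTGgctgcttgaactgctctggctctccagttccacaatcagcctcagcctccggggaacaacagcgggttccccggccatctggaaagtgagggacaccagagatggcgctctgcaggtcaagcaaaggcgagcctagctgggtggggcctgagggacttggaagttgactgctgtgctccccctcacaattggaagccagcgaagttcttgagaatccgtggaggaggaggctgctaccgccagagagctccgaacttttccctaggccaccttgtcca
Slc27a5: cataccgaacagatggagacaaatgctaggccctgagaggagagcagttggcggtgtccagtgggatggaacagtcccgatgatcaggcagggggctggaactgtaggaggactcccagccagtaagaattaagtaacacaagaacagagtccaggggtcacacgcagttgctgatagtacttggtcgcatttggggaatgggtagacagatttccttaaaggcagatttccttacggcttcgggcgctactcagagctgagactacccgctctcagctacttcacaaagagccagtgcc

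The libraries held 61441846 to 92484173 transcripts counted as unique molecular identifiers (UMIs) in each TLH, 8039397 to 15186970 in each set of nuclei, 48255870 and 60005133 in the immune-enriched libraries and 34449562 and 34827603 in the sections. Clusters carrying hepatocyte markers held 16131 of 23036 TLH cells, 11245 of 12525 nuclei and 1360 of 3840 immune-enriched cells, and are called hepatocyte-like. The members took no part in clustering. Their UMIs were summed over the hepatocyte-like cells of each rat and are given as counts per 1000000 UMIs of that sum (CPM). Hepatocyte markers were all above 0 in these sums, as were 15 endothelial and 13 mesenchymal markers, whose summed levels ran from 1702 to 2226 CPM and from 514 to 982 CPM in TLH and from 565 to 682 CPM and from 200 to 327 CPM in nuclei. The nuclei libraries shared 8 to 24 barcodes in each pair. In these UMI data a level depends on the gene's 3 prime end, so values are compared between samples and not between genes.

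The immune-enriched suspension separated the members by cell class. Among hepatocyte-like, endothelial-like and mesenchymal-like cells, the genes of conjugation, transport and classical synthesis were highest in the first in both libraries, whereas Cyp7b1 was counted mainly in the other two. Over all 10 libraries the former was less uniform: the endothelial-like interval lay above the hepatocyte-like one in 1 library for Cyp7a1 and in 1 for Baat, and the mesenchymal-like interval lay below it in 5 for Baat and in 5 for Abcb11. Cyp7b1 stood at 112 CPM (95% Poisson interval 88.5 to 139) in endothelial-like cells of DA and 80.8 CPM (67.0 to 96.7) in those of LEW. In mesenchymal-like cells it stood at 99.8 CPM (62.6 to 151) in DA and 62.0 CPM (49.8 to 76.3) in LEW. Hepatocyte-like cells held 4 UMIs of Cyp7b1 in DA and 10 in LEW, which is 0.829 CPM (0.226 to 2.12) and 0.314 CPM (0.151 to 0.578). Thus the endothelial-like and mesenchymal-like intervals of both libraries lay wholly above the hepatocyte-like one. These intervals cover counting error only, and with 1 rat a strain there was no test.

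**Figure D1:**
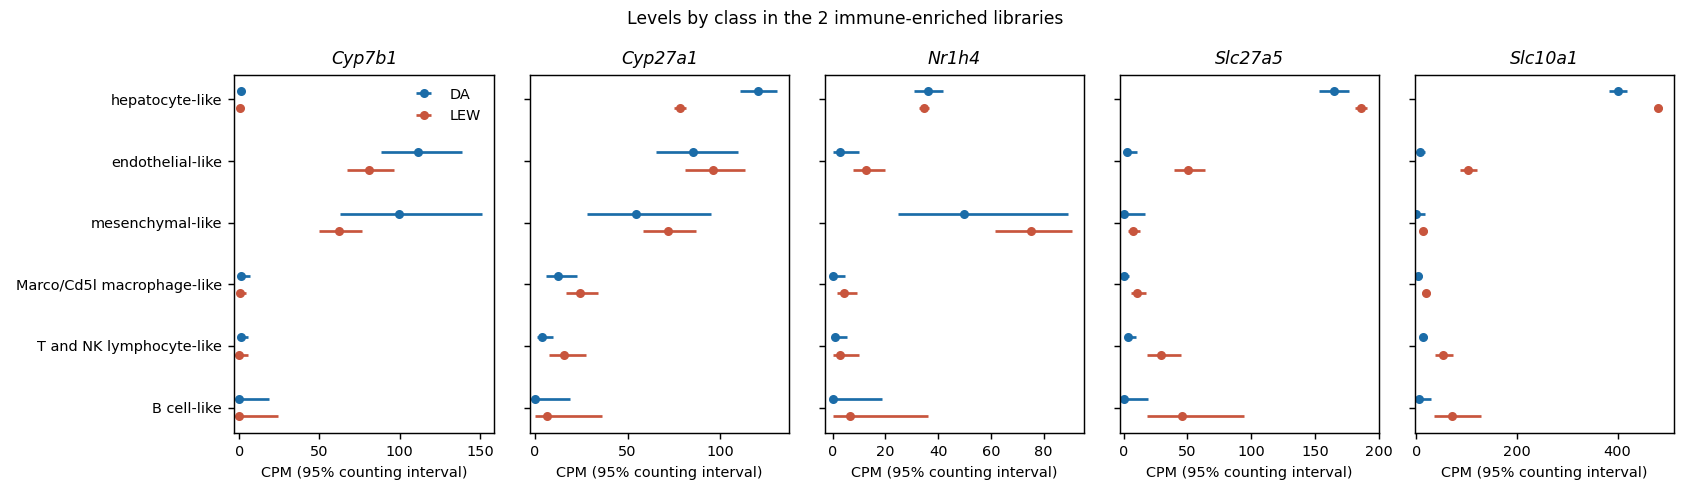
Levels (CPM, linear axis) of Cyp7b1, Cyp27a1, Nr1h4, Slc27a5 and Slc10a1 in hepatocyte-like and 5 non-hepatocyte classes of the immune-enriched DA and LEW libraries, with bars for the 95% Poisson interval. Cyp7b1 is at 112 and 80.8 CPM in endothelial-like cells and at 0.829 and 0.314 CPM in hepatocyte-like cells, while Slc27a5 and Slc10a1 are highest in hepatocyte-like cells.

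Over all libraries, the endothelial-like interval for Cyp7b1 lay above the hepatocyte-like one in 10 of 10 and the mesenchymal-like interval in 9 of 10, against 3 and 6 under the stricter cell filter, which left fewer cells. Endothelial-like levels were 13.4 and 17.7 CPM in DA TLH, 19.9 and 17.1 CPM in LEW TLH, and 19.7 to 35.8 CPM in nuclei. The share of hepatocyte-like TLH cells with a Cyp7b1 UMI was 0.975% and 1.55% in DA (median 1820 and 2616 UMIs a cell) and 0.427% and 0.445% in LEW (2458 and 2269 UMIs). Marco/Cd5l macrophage-like cells served as a comparison class, and their share is called the background here. It was 0.963% and 1.12% in DA TLH (2032 and 2931 UMIs). In LEW TLH it was 0 of 335 and 0 of 357 cells (3428 and 3063 UMIs), which allows shares of up to 0.896% and 0.84%. Macrophage-like cells of the immune-enriched libraries stood at 1.49% in DA and 0.99% in LEW. Whether macrophage-like cells make Cyp7b1 themselves was not tested, so this background need not be carry-over. The DA TLH hepatocyte-like shares were close to the macrophage-like ones, so the DA levels below are near that background. In LEW TLH, 0 macrophage-like cells of so few had a UMI, and whether the hepatocyte-like shares exceed the background was not detectable at this depth. In nuclei the hepatocyte-like share was 1.5% and 1.00% in DA (median 1608 and 1806 UMIs) and 0.423% and 0.278% in LEW (1531 and 2120 UMIs). Macrophage-like nuclei stood at 3.08% and 1.1% in DA (65 and 91 nuclei, 1423 and 1308 UMIs) and at 2.74% of 73 nuclei and 0 of 88 nuclei in LEW (2927 and 1604 UMIs), the last allowing up to 3.41%. Cyp7b1 in hepatocyte-like nuclei was thus not shown to lie above this background. In the TLH and nuclei libraries, albumin in non-hepatocyte classes stood at 30.6% to 85.2% of its hepatocyte-like level. The source of this albumin was not tested.

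Nr1h4 was also counted in mesenchymal-like cells. Its mesenchymal-like level was 49.9 CPM (24.9 to 89.3) in the immune-enriched DA library and 75.2 CPM (61.7 to 90.8) in the LEW one, beside 36.1 CPM (30.9 to 41.8) and 34.6 CPM (32.5 to 36.7) in hepatocyte-like cells. The intervals overlapped in DA and were apart in LEW, and over all 10 libraries the mesenchymal-like interval was above in 6 and below in 0, and above in 1 under the stricter cell filter. Cyp27a1 was also counted in endothelial-like cells, at 85.1 CPM (65.1 to 109) in DA and 96.3 CPM (81.2 to 113) in LEW, against 120.4 and 78.1 CPM in hepatocyte-like cells. Over all 10 libraries its endothelial-like interval lay above the hepatocyte-like one in 3 and below it in 2. By contrast, Slc10a1 stood at 6.98 and 102 CPM in endothelial-like cells against 399.9 and 481 CPM in hepatocyte-like cells. Slc27a5 likewise stood at 2.79 and 50.5 CPM against 165 and 186 CPM. The LEW endothelial-like values go with an albumin level of 26.7% of the hepatocyte-like one in that library, against 2.28% in DA. The part of carried-over hepatocyte transcripts in these values was not tested. No class of cholangiocytes, which take up bile acids from bile, was found among the clusters here. The paper reports a cholangiocyte-like cluster in the nuclei, and where those nuclei fall among these classes was not tested.

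Whether DA and LEW hepatocytes differ in this pathway was asked first in TLH. Of the 10 members, Cyp7b1 fell and Baat rose in LEW against DA by edgeR's quasi-likelihood test with Benjamini-Hochberg adjustment over 9870 genes, of which 4.06% passed at 0.05 (1.91% higher and 2.15% lower in LEW). Each hepatocyte-like cluster held cells of every rat. In clusters 2, 4 and 8 the shares of the strains overlapped (26.3% and 13.4% in DA against 20.5% and 13.7% in LEW for cluster 2). In the other clusters the strains differed in their shares of the hepatocyte-like cells. Cluster 0 held 27.9% and 25% of them in the DA rats and 42.9% and 54.8% in the LEW rats, cluster 1 held 22.6% and 33.6% against 17.8% and 16.4%, and cluster 7, which has Nr0b2 among its top 10 genes, held 8.21% and 12.1% against 2.02% and 2.5%. Their part in the strain differences was not tested. The limits for keeping TLH cells also differed between the strains and cannot be told apart from strain in this fit. In the conjugation step, Baat stood at 493 and 482 CPM in the DA rats and at 717 and 708 CPM in the LEW rats. Both LEW rats were above both DA rats, a 1.48-fold difference (log2 0.57, SE 0.12, adjusted p = 0.0389). Of all genes tested, 53.1% kept the strains apart in this way, so separation alone is common here.

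Cyp7b1, of the alternative pathway, stood at 5.12 and 5.61 CPM in DA (44 and 72 UMIs) and at 1.95 and 2.00 CPM in LEW (21 and 14 UMIs). It fell by 1.42 on the log2 scale (SE 0.29, adjusted p = 0.0350), and the strains did not overlap. The shares of cells given above place the DA counts near the macrophage-like background. In these hepatocyte-like cells the sums of 15 endothelial markers were 1910 and 2226 CPM in DA and 1847 and 1702 CPM in LEW, with 0 markers at 0, and those of 13 mesenchymal markers 514 and 559 CPM in DA and 689 and 982 CPM in LEW, with 0 at 0. The part of the background and of these classes in the difference was not tested. Both calls ended when any 1 of the 4 rats was left out (adjusted p from 0.0620 to 0.198 for Cyp7b1 and from 0.107 to 0.198 for Baat), although the Baat difference itself stayed between 0.56 and 0.59 on the log2 scale. With the replicate number as a block, adjusted p was 0.0842 for Baat and 0.0737 for Cyp7b1. With 2 rats a strain, p-values rest on the spread among these rats, which the fit draws toward that of other genes.

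**Figure D2:**
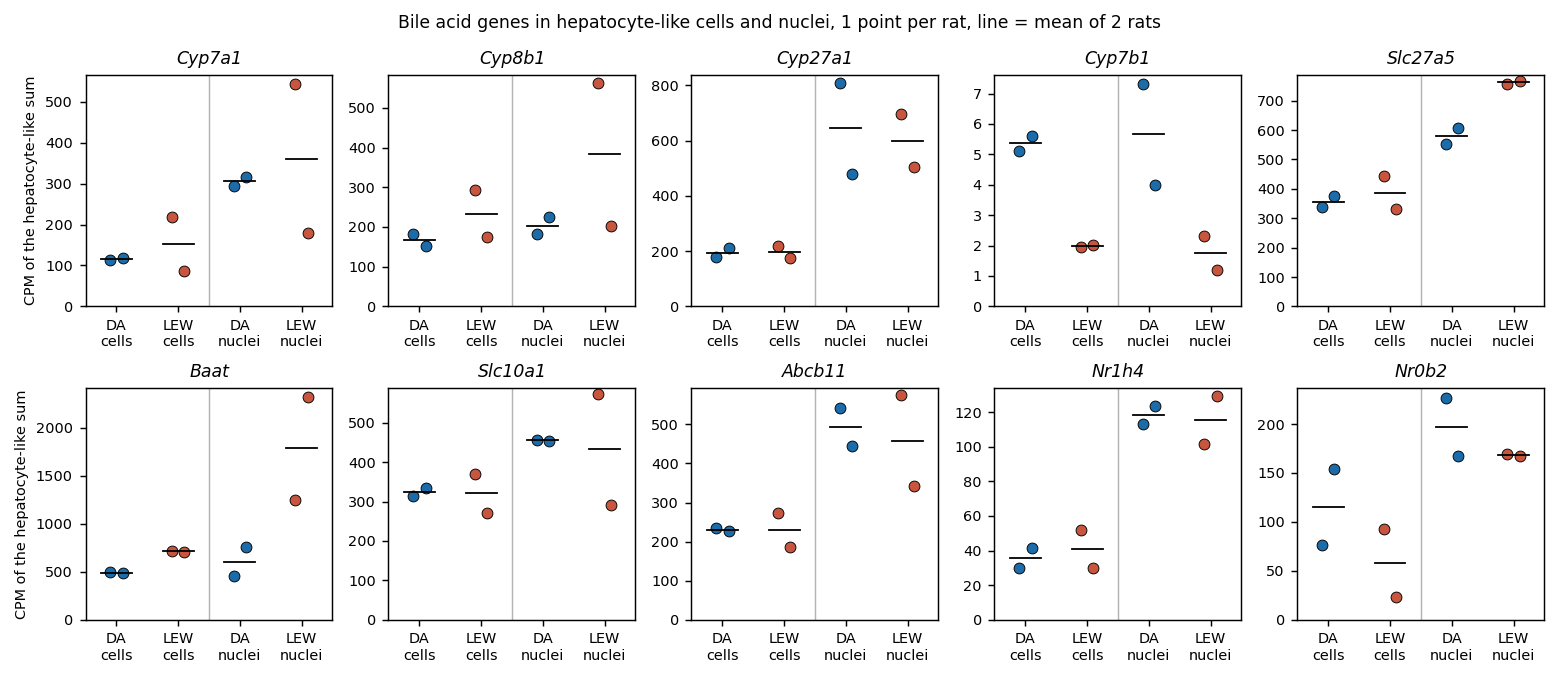
Hepatocyte-like levels of the 10 members (CPM, linear axes from 0) in each of the 8 TLH and nuclei libraries, 1 point a rat, coloured by strain, with a line at the mean of 2 rats. Baat has its LEW points above its DA points on both platforms, at 708 to 717 against 482 to 493 CPM in TLH, and Cyp7b1 lies lower in LEW on both.

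The other 8 members did not pass. Cyp8b1 stood at 182 and 152 CPM in DA and at 293 and 174 CPM in LEW (log2 0.51, SE 0.24, adjusted p = 0.299), with LEW rat 2 between the DA rats, and passed with no filter on low counts (0.50, adjusted p = 0.0232). Cyp7a1 was highest and lowest in the 2 LEW rats, at 218 and 86.9 CPM, with the DA rats at 113 and 119 CPM. Nr0b2 varied most within a strain, at 76.6 and 154 CPM in DA and at 92.5 and 22.9 CPM in LEW (log2 -0.98, SE 0.92). Nr1h4 stood at 29.8 and 41.3 CPM in DA and at 51.8 and 29.6 CPM in LEW. For the remaining members, Cyp27a1, Slc27a5, Slc10a1 and Abcb11, the fitted differences were between 0.01 and 0.14 on the log2 scale, with standard errors of 0.16 to 0.18. Thus no difference beyond the spread between rats was detected for either transporter.

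Separately prepared nuclei gave the same order for Baat and Cyp7b1 with wider spread. Of 10642 genes, 1.27% passed (0.536% higher and 0.733% lower in LEW), and 0 of the 10 members did, although Baat and Cyp7b1 had an unadjusted p under 0.05. Baat stood at 451 and 755 CPM in DA and at 1248 and 2324 CPM in LEW, a 2.97-fold difference (log2 1.57, SE 0.45, adjusted p = 0.156). Cyp7b1 stood at 7.32 and 4.00 CPM in DA and at 2.33 and 1.18 CPM in LEW (log2 -1.57, SE 0.54, adjusted p = 0.276), which are 32, 22, 23 and 7 UMIs and not shown to lie above the macrophage-like background. Strains were apart for Baat, Cyp7b1 and Slc27a5, as for 36.8% of genes. Cyp7a1 stood at 295 and 316 CPM in DA and at 544 and 178 CPM in LEW, and Cyp8b1 at 181 and 225 CPM in DA and at 564 and 202 CPM in LEW, so that the rat numbered LEW 1 was the highest for both classical enzymes, as in TLH. Clusters with Cyp8b1 among their top 10 genes held 17.1% of the hepatocyte-like nuclei of that rat and 8.91% to 11.8% of those of the other rats, whereas clusters with Cyp7a1 among theirs held 8.14% in that rat and 11% to 13.2% in the others. The part of these shares was not tested. Baat passed with DESeq2 (adjusted p = 0.00442), with library totals in place of TMM factors (0.0186), with no filter on low counts (0.0439) and without LEW nuclei rat 1 (0.0456). The Cyp8b1 difference, log2 0.99 (SE 0.53, adjusted p = 0.577), rested on single rats: it was 1.61 (adjusted p = 0.0358) without LEW nuclei rat 2 and -0.10 (adjusted p = 0.931) without LEW nuclei rat 1.

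The strain difference was not shown to depend on the platform. Of 11569 genes, 0.00864% passed the test of the interaction, and 0 of the 10 members did, with an unadjusted p under 0.05 for none of the members. Baat came nearest, with the LEW over DA difference smaller in cells than in nuclei by a log2 of 0.95 (SE 0.47, unadjusted p = 0.0643, adjusted p = 1.00).

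The same class read as whole cells and as nuclei differed for most genes: of 10600 genes, 73% passed (35.2% higher and 37.9% lower in cells), in fits with strain as a term. The chemistry (version 2 for TLH, version 3 for nuclei) and the preparation go with this comparison and cannot be told apart from it. Of the members, Cyp27a1 and Nr1h4 were lower in cells and Cyp7b1 higher. Cyp27a1 stood at 174 to 217 CPM in the 4 TLH libraries and at 480.1 to 807 CPM in the 4 nuclei libraries, apart without overlap as for 68.3% of genes (log2 -0.86, SE 0.24, adjusted p = 0.00615). Nr1h4 stood at 29.6 to 51.8 CPM in TLH and at 102 to 129 CPM in nuclei (log2 -0.77, SE 0.20, adjusted p = 0.00303). The transporters stood at 271 to 371 CPM (Slc10a1) and 187 to 273 CPM (Abcb11) in TLH and at 292 to 574 CPM and 341 to 574 CPM in nuclei, apart for Abcb11 and overlapping for Slc10a1, and neither passed. The CPM ratios exceed the fitted ones because TMM factors moved the median log2 difference over all genes from -0.91 to -0.07.

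That scaling decides several members. With library totals alone, Abcb11 (log2 -1.05, adjusted p = 2.08e-04), Cyp7a1 (-1.32, adjusted p = 0.00612), Slc27a5 (-0.85, adjusted p = 3.24e-04), Nr0b2 (-1.16, adjusted p = 0.0382) and Baat (-0.82, adjusted p = 0.0113) also passed as lower in cells by edgeR's quasi-likelihood test. Of the calls over all genes, 48.2% were higher in cells under TMM and 21.9% under library totals. Cyp7b1 rose in cells under TMM (log2 0.82, SE 0.31, adjusted p = 0.0300), but its levels overlapped, and with library totals the difference was 0.01 (adjusted p = 0.974). It did not pass without DA nuclei rat 2, LEW nuclei rat 2, DA TLH rat 2 or either LEW TLH rat (adjusted p from 0.0510 to 0.124). Without LEW nuclei rat 1, Cyp8b1 (log2 0.75, adjusted p = 0.00616) and Slc10a1 (0.58, adjusted p = 0.0169) passed as higher in cells, and without LEW nuclei rat 2 Cyp7a1 passed as lower (-0.78, adjusted p = 0.0207). Cyp27a1 and Nr1h4 passed in all 17 alternatives tried, whichever scaling was used.

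**Figure D3:**
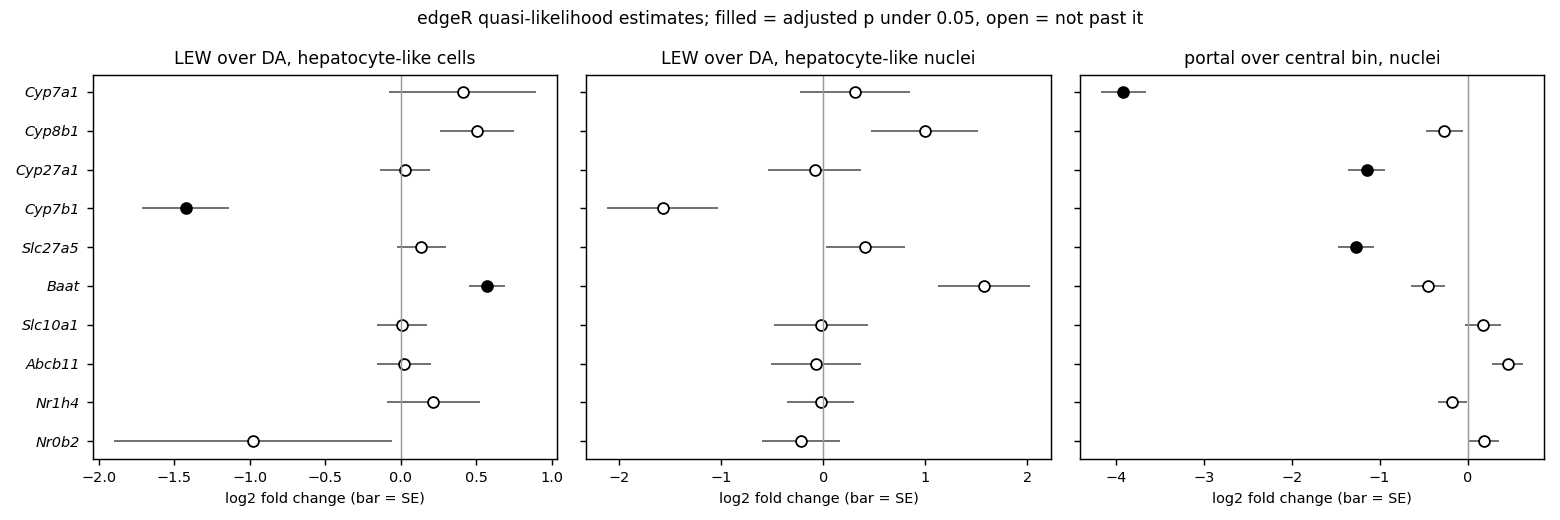
Fitted log2 differences of the 10 members with standard errors in the comparisons of strain (LEW over DA, in TLH and in nuclei) and of portal over central nuclei, each panel with its own axis, with filled points for members past an adjusted p of 0.05. Cyp7a1 is at -3.91 along the lobule, far from 0 and from the other members, and Baat is above 0 in both strain comparisons.

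Position along the lobule was compared in nuclei. Hepatocyte-like nuclei of each rat were ranked by a zone score, the mean over 7 periportal genes (Arg1, Ass1, Gls2, Hmgcs1, Orm1, Srd5a1, Tf) minus the mean over 4 pericentral ones (Cyp2e1, Glul, Oat, Sult1e1), none of which is a member. The ranking was divided into 3 bins of equal size, the outer bins are called portal and central, and these were compared within the rat. Of 8548 genes, 3.49% passed (1.71% higher portally and 1.78% centrally), and Cyp7a1, Slc27a5 and Cyp27a1 were among them, all higher in the central bin. Cyp7b1 was too low to be tested, and the other 6 members did not pass.

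Cyp7a1, the first enzyme of the classical pathway, stood at 622 and 791 CPM in the central bin of the DA rats and at 1213 and 402 CPM in that of the LEW rats. In the middle bin it stood at 200.3, 119.8, 248 and 106 CPM, and in the portal bin at 82.9, 32.2, 66.9 and 20.6 CPM. Every rat fell stepwise from central to portal, by 7.51, 24.5, 18.1 and 19.5-fold. The fitted difference was 15.1-fold (log2 -3.91, SE 0.25, adjusted p = 7.57e-08). A Cyp7a1 UMI was found in 32.1% to 44.7% of central nuclei and in 3.69% to 9.49% of portal nuclei, whose median UMIs were 1457 to 2262 and 1507 to 1957. Along this axis the spread between the LEW rats seen above was present in each bin, with LEW rat 1 above LEW rat 2.

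**Figure D4:**
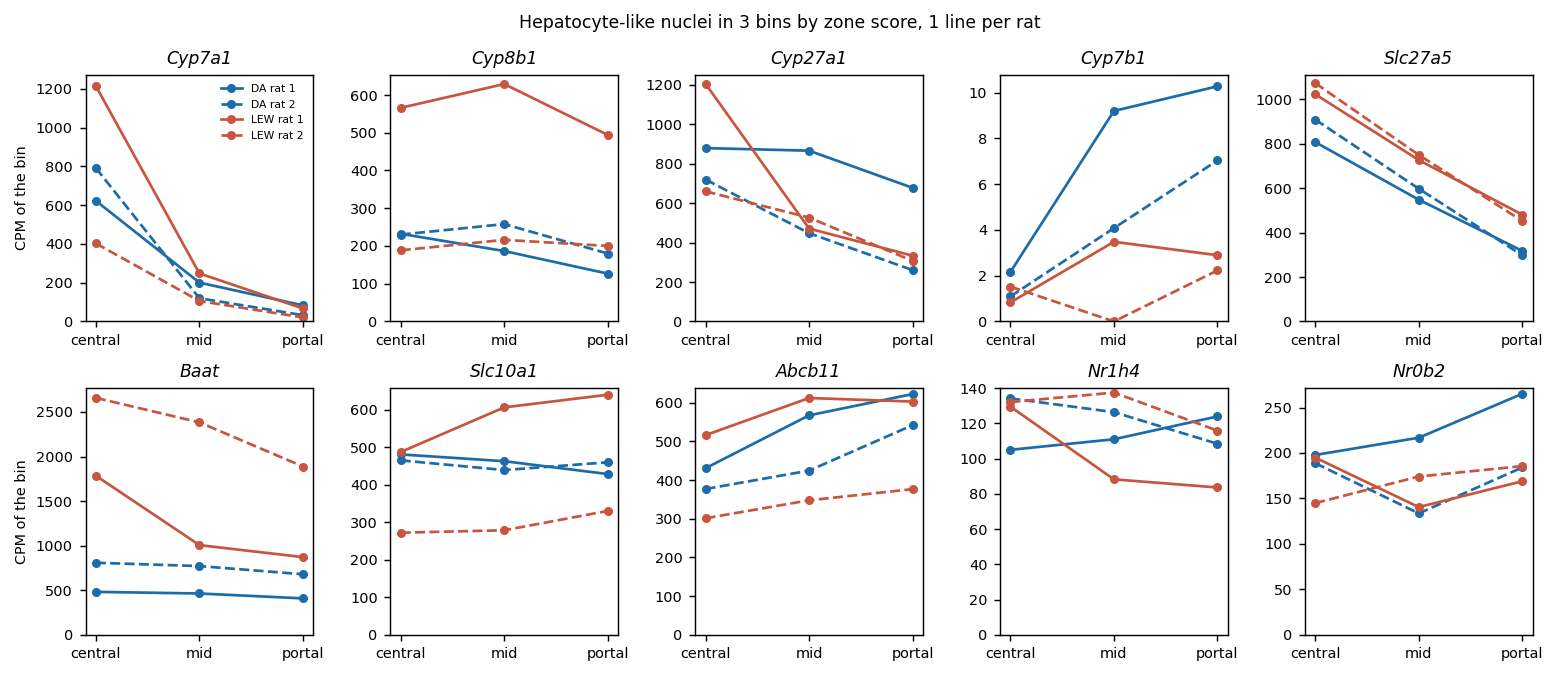
Levels of the members (CPM, linear axes from 0) in the central, middle and portal bins of hepatocyte-like nuclei by zone score, 1 line a rat, coloured by strain. Cyp7a1 falls in all 4 rats from 402 to 1213 CPM in the central bin to 20.6 to 82.9 CPM in the portal bin, and Slc27a5 and Cyp27a1 fall less.

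Slc27a5, the coenzyme A ligase, stood at 808 and 909 CPM (DA) and 1024 and 1073 CPM (LEW) in the central bin, and at 318, 298, 481 and 452 CPM in the portal bin. All 4 rats were higher centrally, by 2.13-fold to 3.05-fold (log2 -1.27, SE 0.20, adjusted p = 8.80e-04). Cyp27a1, of the alternative pathway, stood at 879, 719.6, 1205 and 659.6 CPM centrally and at 677, 260.2, 333 and 307 CPM portally. The 4 rats again went one way, by 1.30-fold to 3.61-fold (log2 -1.15, SE 0.21, adjusted p = 0.00273). For Cyp27a1 the call depended on the processing: adjusted p was 0.0593 without DA nuclei rat 2 and 0.315 with strain in place of the rat. With a second pair of zone lists (periportal Sds, Hal, Uroc1, Gldc, Etnppl, Cps1, Agxt, Ftcd and Mfsd2a, and pericentral Glul, Cyp1a2, Gulo, Slc13a3, Slc1a2, Lgr5, Axin2, Tbx3 and Rhbg) its difference was -0.05 (adjusted p = 0.889). Cyp7a1 and Slc27a5 passed in all 15 alternatives.

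Cyp8b1, of the classical pathway, and Baat, of conjugation, did not pass. Cyp8b1 stood at 232, 230.2, 566 and 189 CPM centrally and at 127, 179.9, 494 and 200.05 CPM portally, lower portally in 3 of 4 rats and unresolved (log2 -0.27, SE 0.21, adjusted p = 0.695). Baat was lower portally in 4 of 4 rats, by 1.18-fold to 2.05-fold (log2 -0.45, SE 0.19, adjusted p = 0.323). Abcb11, the export pump, went the other way, from 431, 377, 516 and 301 CPM centrally to 623, 542, 603 and 377 CPM portally, higher portally in 4 of 4 rats without passing (log2 0.45, SE 0.18, adjusted p = 0.253). All pairs went one way for 18.5% of genes, so neither the Baat nor the Abcb11 order sets them apart from other genes. Slc10a1 (log2 0.18), Nr0b2 (0.19) and Nr1h4 (-0.17) were not resolved in these fits.

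Under the second lists, Slc10a1 was lower portally (log2 -1.42, adjusted p = 4.38e-04), as was Cyp8b1 (-1.79, adjusted p = 1.70e-04), while Nr1h4 (0.66, adjusted p = 0.0137) and Nr0b2 (0.75, adjusted p = 0.00884) were higher portally by the same edgeR quasi-likelihood test. Under those lists 45.7% of 8761 genes passed, against 3.49% under the first, so these calls are to be read against that share. The second lists put nuclei of unequal depth in the bins, with median UMIs of 2047 to 3115 portally and 1285 to 1529 centrally, and the part of depth was not tested. Endothelial marker sums ran from 459 to 676 CPM in the portal bins and from 566 to 691 CPM in the central bins of the first lists, and mesenchymal sums from 140.4 to 309 CPM and from 199.7 to 347 CPM. Cyp7b1 held 15, 12, 9 and 4 UMIs in the portal bins and 3, 2, 3 and 3 in the central bins. It was higher portally in 4 of 4 rats, and the fit with no filter on low counts gave a log2 of 1.91 (SE 0.51, adjusted p = 0.00880). These few UMIs were not shown to lie above the macrophage-like background in nuclei, whose part in the difference was not tested.

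Hepatocyte-like cells of the immune-enriched libraries gave the same ranking a further reading, with 52 cells a bin in DA and 401 or 402 in LEW and no test. They are cells that remained after a step meant to remove parenchymal cells. Cyp7a1 stood at 326 CPM in the central bin of DA and 65.4 CPM in that of LEW. In the portal bin it had 0 UMIs in DA, which allows up to 1.55 CPM, and 4 UMIs or 0.296 CPM in LEW. Slc27a5 stood at 360.4 and 349 CPM centrally against 47.0 and 106 CPM portally, and Cyp27a1 at 193 and 129 CPM against 66.1 and 55.7 CPM. All 3 were higher centrally in both libraries, as in nuclei. Cyp8b1 was at 48.9 and 78.7 CPM centrally against 36.2 and 76.2 CPM portally, and Abcb11 at 206 and 309 CPM against 239 and 277 CPM, so that Abcb11 went in opposite directions in the 2 libraries. The central cells were shallower, with medians of 27311 and 12823 UMIs against 38439 and 38024, and the part of depth was not tested.

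The Visium sections were ranked by the same score, and sums over the outer bins of 2437 spots (section A) and 2404 spots (section B) were compared in each section without a test, since there was 1 value a section. The paper reports the score genes as enriched at the ends of zonation components of these same sections. The ranking was therefore not chosen independently of the sections. A spot can hold several cells of different types, so fewer cells of a type and less RNA per cell cannot be told apart. Of 8069 genes, 6.05% had a counting interval below 0 (central) in both sections and 5.94% above 0 (portal). Of the 10 members, 5 were central and 3 portal in both sections by this rule. Slc10a1 was no longer among the central ones with the outer bins of 10 (4 central and 3 portal) or under the second lists, where Abcb11 joined the portal ones (4 and 4). Members with many UMIs have narrow intervals, so such a count also depends on depth. Cyp7a1 stood at 24.7 CPM portally and 83.5 CPM centrally in section A and at 23.0 and 94.0 CPM in section B, log2 ratios of -1.76 (-1.95 to -1.57) and -2.03 (-2.23 to -1.84). Slc27a5 stood at 679 against 1127 CPM in section A and at 637 against 1128 CPM in section B (log2 -0.73 and -0.82). Cyp27a1 had log2 ratios of -0.61 and -0.63, Baat of -0.18 and -0.15, and Slc10a1 of -0.07 and -0.13. Thus the 3 genes that passed in nuclei lay in the same direction on both sections, with smaller ratios for each.

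The portal genes on the sections were Cyp7b1, Nr0b2 and Cyp8b1. Cyp7b1 stood at 49.4 CPM portally and 24.6 CPM centrally in section A and at 54.6 and 22.3 CPM in section B (log2 1.01, interval 0.80 to 1.22, and 1.29, interval 1.08 to 1.51). The sums of 14 endothelial markers were 0.959-fold and 0.939-fold as high portally as centrally, and those of 10 and 11 mesenchymal markers 0.892-fold in each section, while 13 Marco/Cd5l macrophage markers were 1.76-fold and 1.90-fold higher portally, 7 T and NK lymphocyte markers 1.62-fold and 1.43-fold, and 3 and 4 cholangiocyte markers 1.16-fold and 1.23-fold. The part of these classes in the Cyp7b1 difference was not tested. Both outer bins of each section lay above the hepatocyte-like Cyp7b1 levels of TLH (1.95 to 5.61 CPM) and nuclei (1.18 to 7.32 CPM). Strain, platform and the mix of cells in a spot cannot be told apart in that contrast. Nr0b2, the repressor, stood at 56.6 against 36.4 CPM and at 54.8 against 35.0 CPM (log2 0.64 in each section). Cyp8b1 stood at 368 against 317 CPM and at 396 against 352 CPM (log2 0.21 and 0.17), whereas in nuclei it was lower portally in 3 of 4 rats (log2 -0.27, adjusted p = 0.695) and under the second lists passed in that direction. Abcb11 (0.06 and 0.12) and Nr1h4 (-0.08 and -0.02) had an interval that included 0 in at least 1 section.

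**Figure D5:**
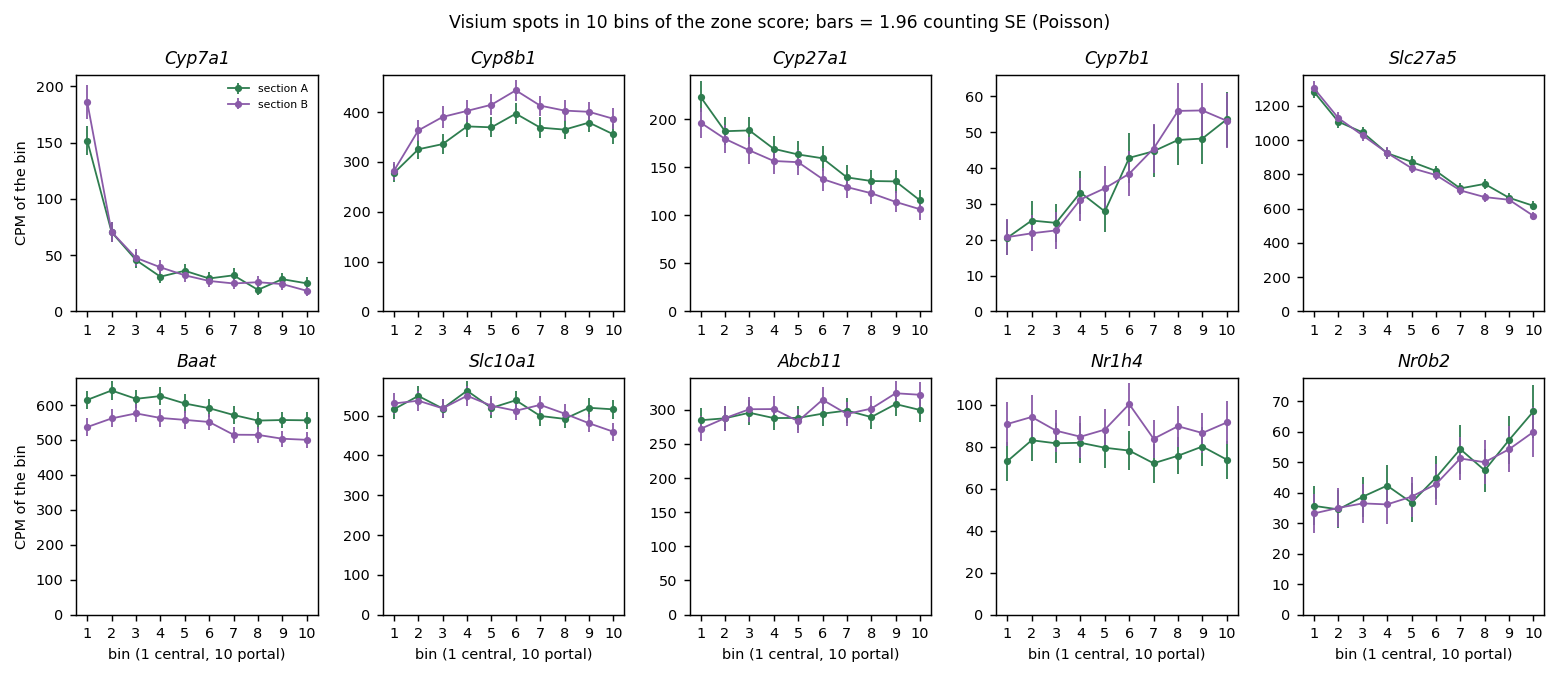
Levels of the members (CPM) over 10 bins of the spots of each Wistar section ranked by zone score. Bins run from the most central (1) to the most portal (10), with 1 line a section and bars for approximate 95% counting intervals. Cyp7a1 falls from 152 and 186 CPM to 24.9 and 18.3 CPM, Cyp7b1 rises from 20.5 and 20.7 CPM to 53.6 and 53.2 CPM, and Cyp8b1 is highest in bin 6.

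A division of the ranking into 10 bins showed the shape of these gradients. Cyp7a1 fell from 152 to 24.9 CPM between the most central and the most portal bin of section A, a 6.10-fold ratio, and from 186 to 18.3 CPM in section B, a 10.2-fold ratio. Most of that fall lay at the central end, since bin 2 already stood at 70.4 and 70.6 CPM. Slc27a5 ran from 1282 to 616 CPM and from 1303 to 558 CPM, and Cyp27a1 from 223 to 116 CPM and from 197 to 106 CPM. In the opposite direction, Cyp7b1 ran from 20.5 to 53.6 CPM and from 20.7 to 53.2 CPM, and Nr0b2 from 35.6 to 66.6 CPM and from 33.1 to 59.9 CPM. Cyp8b1 was not monotonic: it stood at 277 and 282 CPM in the most central bin, reached its highest values of 397 and 444 CPM in bin 6 of both sections, and stood at 355 and 387 CPM at the portal end. So the classical pair was ordered differently along the score, with Cyp7a1 at the central end and Cyp8b1 highest in the middle.

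Over single spots, Spearman's rho with the zone score was -0.50 in both sections for Slc27a5, -0.28 and -0.32 for Cyp7a1, -0.21 in both for Cyp27a1, 0.19 and 0.23 for Cyp7b1, and 0.15 and 0.12 for Nr0b2. These are descriptions over spots that share a section and its depth, with a Cyp7a1 UMI in 39.7% and 39.8% of spots and a Slc27a5 UMI in 99.0% and 98%. Among the 45 pairs of members rho lay between -0.13 and 0.21 in section A and between -0.14 and 0.28 in section B. In sparse counts such weak correlations are no finding.

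The genes whose profile over the 20 bins (10 a section) was most like a member's, by Pearson's r of log2(CPM + 10) among 8613 genes, give each gradient its company. For Cyp7a1 these included Cyp2c6v1 (r = 0.979) and LOC259244 (0.972), and for Slc27a5 LOC501233 (0.992), Xpnpep2 (0.991) and Rgn (0.988). Rgn was also near Cyp27a1 (0.969), after Apoa2 (0.987) and Csad (0.980). Cyp7b1 was nearest to G0s2 (0.967), Sult2a6 (0.962) and Pck1 (0.961), the last of which encodes the gluconeogenic enzyme PEPCK. Cyp8b1 was nearest to LOC297568 (0.965), Cps1 (0.965), which encodes the first enzyme of the urea cycle, and Cyp2c13 (0.949). Nr0b2 was nearest to Apoa1 (0.949), Sdc1 (0.947) and Msh3 (0.939), and Baat to AC134224.3 (0.945), Ca3 (0.943) and Ttr (0.938). Slc10a1 had looser neighbours (Mgst2, Pgm3 and Yipf4, 0.752 to 0.755). So had Abcb11 (Pld4, Tor3a and Atp5f1b, 0.797 to 0.810) and Nr1h4 (Ppp1r3c, LOC100912026 and Tmed2, 0.824 to 0.837). All neighbours are the best matches among 8613 genes over 20 bins, and how high r runs for unrelated genes was not tested.

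Whether the gradient itself differs between DA and LEW was tested as zone by strain in nuclei. Of 9212 genes, 1.18% passed (0.836% with a positive and 0.347% with a negative difference of LEW from DA), and 0 of the 10 members did by edgeR's quasi-likelihood test, with an unadjusted p under 0.05 for Cyp8b1 and Slc10a1. Cyp8b1 was lower portally by 1.83-fold and 1.28-fold in the DA rats and by 1.15-fold in LEW rat 1, and 1.06-fold higher in LEW rat 2 (difference of log2 0.83, SE 0.29, adjusted p = 0.116). It passed with hepatocytes taken without clusters (0.93, adjusted p = 0.0484) and under the second lists (1.05, adjusted p = 0.0463). Slc10a1 went from 481 to 429 CPM and from 465 to 460.1 CPM from central to portal in DA, and from 488 to 640.4 CPM and from 272 to 330.4 CPM in LEW (0.71, SE 0.29, adjusted p = 0.175). The DA and LEW rats moved in opposite directions, but the difference did not pass. TMM factors moved the median of all genes by 0.27 on the log2 scale in this fit, and of the calls 70.6% were positive under TMM and 14.6% under library totals.

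Of 40 other genes of the pathway, 37 were in the tables and about 30 were tested in each comparison. This list and the members were read against the shares of all genes given above. In TLH, 2 rose and 2 fell in LEW of 30 tested, a median log2 of -0.08 against -0.01 over all genes. Abcg5, a subunit of the canalicular sterol transporter, rose from 10.8 and 10.2 CPM in DA to 34.8 and 22.0 CPM in LEW (log2 1.47, SE 0.23, adjusted p = 0.0132), and Amacr, the racemase of side chain shortening, from 296 and 269.8 CPM to 555 and 586 CPM (log2 1.04, SE 0.13, adjusted p = 0.00447). The receptors CAR (Nr1i3) and PXR (Nr1i2), which sense bile acids and drugs, were lower in LEW: Nr1i3 at 36.2 and 39.4 CPM against 77.0 and 94.3 CPM (log2 -1.16, SE 0.16, adjusted p = 0.00696), and Nr1i2 at 52.5 and 54.4 CPM against 91.9 and 79.1 CPM (log2 -0.65, SE 0.13, adjusted p = 0.0373). Without LEW TLH rat 1 none of these 4 calls held (adjusted p of 0.109 for Abcg5, 0.0689 for Amacr, 0.135 for Nr1i3 and 0.210 for Nr1i2), and without LEW TLH rat 2 Amacr (0.0608), Nr1i3 (0.0803) and Nr1i2 (0.176) did not. Nr1i2 was also lost without DA TLH rat 1 (0.118), with the replicate block (0.0820) and under the stricter cell filter (0.749). In nuclei, 0 of 30 passed for strain.

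Along the lobule 2 of 29 were higher portally and 3 centrally, with a median log2 of -0.14 against 0.00 over all genes. The partners Abcg8 (log2 2.73, SE 0.19, adjusted p = 7.57e-08) and Abcg5 (log2 2.36, SE 0.18, adjusted p = 2.19e-07) were portal. Abcg8 stood at 64.4, 51.0, 94.2 and 84.1 CPM portally and at 9.35, 8.18, 15.2 and 14.7 CPM centrally, 5.71-fold to 6.89-fold apart in every rat. Nr1i3 (log2 -1.72), Amacr (-1.30) and Hsd3b7 (-0.82), the last an early enzyme of both pathways of synthesis, were central, with adjusted p of 5.26e-05, 0.00134 and 0.0124. With no replicate block none of these 3 passed (0.0582, 0.156 and 0.250), Nr1i3 did not pass under the second lists (log2 -0.44, adjusted p = 0.111), and Hsd3b7 did not without DA nuclei rat 2 (0.242) or LEW nuclei rat 2 (0.143). In the fit with the rat as a block, further synthesis genes that passed lay on the side of Cyp7a1, and the sterol export pair on the opposite side.

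Between cells and nuclei 7 of 30 were higher and 16 lower in cells, a median log2 of -0.58 against -0.07. These counts stand beside 35.2% higher and 37.9% lower over all genes. Of 10 further synthesis genes, 5 were higher and 2 lower, led by Scp2 (log2 1.61), Hsd17b4 (1.51) and Akr1c14 (1.45). Of 6 export genes 6 were lower, and of 10 regulators 1 was higher and 6 lower, with Nr1i3 (-2.06), the uptake carrier Slco1b2 (-1.80) and Mafg (-1.79) the farthest. With library totals 3 synthesis genes were higher and 4 lower, 6 of 6 export genes were lower and 9 of 10 regulators were lower. The roles were not tested against each other. In the test of zone by strain 1 of 30 passed, Slco1a4, an uptake carrier of bile salts (log2 1.14, SE 0.30, adjusted p = 0.0287). Its level went from 444 to 208 CPM and from 472 to 296 CPM from central to portal in DA, and from 627 to 648 CPM and from 262 to 245 CPM in LEW. The call was lost without DA rat 1 (adjusted p = 0.657), LEW rat 1 (0.806) or LEW rat 2 (0.116), under the stricter cell filter (0.331), with nuclei thinned (0.0865) and with library totals (0.0794).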

How the data were processed

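UMI counts per gene and barcode were used as deposited: the authors made these counts with Cell Ranger 3.1.0 (cells and nuclei) and Space Ranger 1.1.0 (sections), named in their processing notes, and the aligner settings are not given in the sources used here. The TLH and immune-enriched tables carry no gene names, so names were taken by row from the nuclei feature list of the same length (32883 rows), which rests on an equal row order. TLH barcodes were kept from 1500 UMIs and up to 30% mitochondrial UMIs (DA rat 1), 2000 and 20% (DA rat 2) or 2000 and 40% (LEW), nuclei from 1000 UMIs and up to 10%, immune-enriched cells from 1000 UMIs and up to 50%, and every deposited spot was kept. The LEW limit of 2000 UMIs lies above the stated 1500, which was tried only together with hepatocytes taken without clusters. These TLH limits differed between the strains and cannot be told apart from strain in the main fit. The stricter cell filter used 3000 UMIs and 20% for every TLH library. Clustering (sctransform 0.4.2 residuals of 3000 genes, 15 components, batch mixing across rats) left the members and pathway genes out, and clusters were named from marker lists. Scrublet in scanpy 1.11.5 marked 7 TLH, 62 nuclei and 18 immune-enriched barcodes, which is too few to have worked in the larger sets, so doublets were kept and leaving out the 6% with the highest scores was an alternative.

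UMIs were summed per rat and tested in R 4.3.3 with edgeR 4.0.16 (TMM factors, filterByExpr, glmQLFit with robust estimation, glmQLFTest) and Benjamini-Hochberg adjustment over all genes tested at 0.05. DESeq2 1.42.0 was an alternative. Outer bins (of 3) of nuclei by zone score were fitted with the rat as a block. The tests of strain in TLH, strain in nuclei, cells against nuclei and zone in nuclei were first tried on simulated counts. The tests of strain by platform and zone by strain were not. The simulated counts had the same spread for every gene and no effect of the rat, so they do not show how the tests behave on these data. Named genes were the 10 members, up to 3 other pathway genes in each direction past the threshold with the groups apart, and the 3 nearest profiles on the sections, of which 1 is not reported here. Members, lists and tests were chosen with earlier results of these data known. Levels in classes have exact 95% Poisson intervals. Log2 ratios on the sections have exact 95% binomial intervals, given the UMIs of both outer bins together. Bars over the 10 bins of the sections are normal approximations. A count of 0 allows up to 3 counts, and all of these cover counting error only. The replicate numbers of DA and LEW rats mark no shared animal. Over the tested genes, deviations of DA rat 1 and LEW rat 1 from their strain means correlated at -0.191 in TLH and 0.105 in nuclei. With 2 rats a strain, the deviations of the rats numbered 2 mirror these and add no further pair. The nuclei labels do not tie them to the TLH animals, although names attached to both sets carry the same animal numbers, and the sets were treated as separate samples.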

Additional observations from a re-analysis of the deposited data

Results flagged for a closer look

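The gradient of Slco1a4, an uptake carrier of bile salts, differed between the strains in a test of the difference itself in nuclei: the portal over central log2 difference was higher in LEW than in DA by 1.141 (edgeR's quasi-likelihood test, adjusted p = 0.0287). It was lower portally in 2 of 2 DA rats and near 1-fold in both LEW rats. It passed in 8 of 14 alternatives, with adjusted p from 0.0130 to 0.806. The cause was not tested.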

How the results depend on the processing

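Of 1106 alternative values for members and named pathway genes, 1039 kept their side of the threshold, 44 lost it, 20 gained it and 3 reversed. A further 79 changed sign without passing in either fit. The reversals were Baat in cells against nuclei with library totals (-0.82), and Nr1h4 (0.66) and Slc10a1 (-1.42) along the lobule with the second zone lists. On the sections Slc10a1 was at 0.0029 in section A with the outer bins of 10. The cause was not tested.

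Counts of genes past the threshold moved as follows. For strain in TLH (401) they were 881 with the replicate block crossed, 249 with the replicate block, 1094 with no filter on low counts, 215 with the stricter cell filter and 51 to 371 with a rat left out. For strain in nuclei (135) they were 248 with DESeq2, 334 with library totals, 531 with no filter, 350 with the replicate block, 54 with the stricter cell filter and 130 to 278 with a rat left out. For strain by platform (1) they were 11 with DESeq2, 2 with library totals, 27 with no filter, 0 with the stated LEW limit and hepatocytes taken without clusters together, 4 with the stricter cell filter and 0 to 5 with a rat left out. For cells against nuclei they were 7358 to 8049 with a rat left out. For zone in nuclei (298) they were 466 with no filter, 84 with no replicate block, 4002 with the second lists and 188 to 727 with a rat left out. For zone by strain (109) they were 21 with DESeq2, 282 without clusters, 166 with the highest Scrublet scores left out, 1 with the stricter cell filter, 19 with nuclei thinned, 361 with the second lists and 1 to 359 with a rat left out. The endothelial-like interval of Cyp7b1 lay above the hepatocyte-like one in 3 libraries under the stricter cell filter against 10, and the mesenchymal-like interval of Nr1h4 in 1 against 6, with fewer cells. Calls of 0 members for strain in nuclei, strain by platform and zone by strain rest on 2 rats a strain, and Cyp7b1 rests on 7 to 72 UMIs a rat.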
